A study of Mus musculus with 6 samples.

Results

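The genes described here are 10 regulators of oxidative metabolism in muscle: the oestrogen-related receptors Esrra, Esrrb and Esrrg, the coactivators Ppargc1a and Ppargc1b (PGC-1 alpha and beta), the muscle regulator Perm1, and the nuclear receptors Ppara, Ppard, Rxra and Rxrg. They were taken by symbol from the 21666 genes of the count matrix, all 10 were found, and all 10 passed the filter on low counts that left 15518 genes. They were chosen by family, with the KO over WT fold changes already known, and Esrrb was selected on its fold change, among the largest falls, so their differences between genotypes are a description and support nothing further. The counts come from RNA-seq of skeletal muscle satellite cells, the stem cells of muscle, kept in differentiation for 2 days. There were 3 libraries from wild-type (WT) mice and 3 from lncMREF knockout (KO) mice, lncMREF being a long noncoding RNA. The sources used here give neither the strain, age and sex of the mice nor how the knockout was made. The targeted RNA could not be matched to a gene of the matrix, so its loss in KO could not be checked.

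The oestrogen-related receptors are orphan nuclear receptors: they bind DNA without a known natural hormone, at a site with the core AAGGTCA, and their activity depends on coactivators. PGC-1 coactivators bind these receptors, the PPAR receptors and other factors, and switch on genes of mitochondria, fatty acid oxidation and the tricarboxylic acid cycle. PPAR receptors sense fatty acids and bind DNA together with an RXR receptor. Perm1 is known in muscle as a gene induced by PGC-1 and the oestrogen-related receptors that in turn supports oxidative genes.

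Library totals ran from 17919826 to 28430678 counts in the matrix. The same 6 libraries were also deposited as separate count tables, with totals of 5501088 to 9136354, and the sources disagree gene by gene. There, 4 of the 10 genes had 0 counts in every library, no member but Ppara had more than 10 counts in any, and Ppara, the only one that passed the filter, went the other way (1.76). All values below are from the matrix, and which source is right was not tested. Levels are CPM, counts brought to a common library total after scaling for library composition. All 11 muscle lineage markers were measured. This shows RNA of the muscle lineage, but not that the cells were still satellite cells. The summed level of these markers ran from 17142 to 17793 CPM in WT and from 3903 to 4155 in KO, with 8 lower, 1 higher and 2 not called. Myh3 and Acta1 were the largest parts of that sum in both groups. Pax7, a marker of satellite cells, was the higher one (0.53, SE 0.10), at 10.5 CPM in WT and 15.1 in KO. Myf5 (-0.15, SE 0.14) and Vcam1 (0.03, SE 0.06) were not called. These genes were named after their values were seen. The sum therefore does not describe each marker of the list. Markers of other cells also differed between the groups. The 9 endothelial markers summed to 314 to 321 CPM in WT and 75.7 to 81.2 in KO, the 10 macrophage markers to 109.5 to 120.2 and 349 to 362, and the 9 Schwann cell markers to 498.6 to 500.8 and 995 to 1016. All 9 endothelial markers were called lower and 9 of the 10 macrophage markers higher. Of the Schwann cell markers 7 were higher and 1 lower: Ngfr, which gave most of the rise of the sum, went from 130 to 519 CPM (2.00, SE 0.04) and Erbb3 from 244 to 121 (-1.02, SE 0.05), both named after their values were seen. The 8 tested markers of fibro-adipogenic progenitors summed to 979 to 1019 and 1057 to 1114, with 3 lower and 4 higher, and the 9 smooth muscle and pericyte markers to 3368 to 3507 and 2944 to 3048, with 6 lower and 2 higher. The largest parts of the macrophage, progenitor and smooth muscle sums were Lyz2 (82.5 to 238 CPM), Gsn (579 to 702) and Acta2 (2233 to 1830). Against their sums, Dcn fell from 216 to 143 and Pdgfrb rose from 794 to 871. These genes were named after their values were seen. Of the 8 adipocyte markers, Cidec, Lep and Retn were not in the matrix and only Fabp4 and Pparg passed the filter, summing to 16.6 to 23.0 and 6.11 to 7.13. The fall of that sum was that of Fabp4 alone (19.2 to 5.43 CPM), named after its value was seen, and Pparg was not called. No defining marker of the other lists was at 0 in all libraries, and the part of these cells in the values below was not tested. In such bulk libraries fewer cells of a type and less RNA per cell cannot be told apart.

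Promoter sequence is shown first for some of the members. They are Esrrb and Ppargc1a, which showed the largest differences, Rxrg and Perm1, which lay on opposite sides, and Rxra, which was not called. They include every member with the receptor core found below, whereas Ppara and Esrrg, which fell more than Rxrg, are not shown. RefSeq promoter windows (GRCm38.p6, 250 bases before to 50 after a start site) were found for 9 of the 10 genes, 15 windows in all; Ppargc1b was not analysed here. Each line gives the strand of the gene 5′ to 3′ before the start, ending ahead of any exon of the GENCODE annotation, and capitals mark the matches named below. For Esrrb, Rxrg and Rxra the downstream window, which held a match, is shown. The window at the upstream start of each of these genes held no match. The regions are chr12:86421394-86421643 (Esrrb, downstream start, plus strand, intronic), chr5:51567727-51567975 (Ppargc1a, minus strand, upstream of the gene), chr1:167618015-167618264 (Rxrg, downstream start, plus strand, intronic), chr4:156215677-156215867 (Perm1, plus strand, upstream of the gene) and chr2:27709042-27709291 (Rxra, downstream start, plus strand, intronic).
Esrrb: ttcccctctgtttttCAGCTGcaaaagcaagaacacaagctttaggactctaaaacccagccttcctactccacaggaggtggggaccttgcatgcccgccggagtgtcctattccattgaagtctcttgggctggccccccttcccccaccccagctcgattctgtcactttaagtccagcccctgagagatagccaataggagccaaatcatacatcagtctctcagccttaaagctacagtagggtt
Ppargc1a: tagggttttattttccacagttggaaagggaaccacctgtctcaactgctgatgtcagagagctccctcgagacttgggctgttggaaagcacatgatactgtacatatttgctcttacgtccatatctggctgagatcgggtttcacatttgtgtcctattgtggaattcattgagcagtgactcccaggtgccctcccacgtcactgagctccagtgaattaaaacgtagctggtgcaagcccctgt
Rxrg: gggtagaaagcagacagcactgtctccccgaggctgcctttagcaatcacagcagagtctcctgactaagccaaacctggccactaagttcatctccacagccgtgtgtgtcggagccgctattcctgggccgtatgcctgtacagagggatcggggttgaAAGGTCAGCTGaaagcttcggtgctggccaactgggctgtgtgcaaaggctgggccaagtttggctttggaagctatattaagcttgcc
Perm1: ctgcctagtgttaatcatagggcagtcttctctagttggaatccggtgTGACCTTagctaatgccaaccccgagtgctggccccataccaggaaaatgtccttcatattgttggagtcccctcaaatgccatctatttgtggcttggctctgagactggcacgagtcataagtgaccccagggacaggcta
Rxra: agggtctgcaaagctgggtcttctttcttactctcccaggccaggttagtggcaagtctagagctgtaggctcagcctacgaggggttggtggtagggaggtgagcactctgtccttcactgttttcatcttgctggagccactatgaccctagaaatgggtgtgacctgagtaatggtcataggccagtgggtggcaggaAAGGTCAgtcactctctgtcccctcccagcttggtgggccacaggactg

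A set of 6 motifs was searched for as exact letters on both strands of each whole window. The core of the oestrogen-related receptor site, AAGGTCA, was found in 3 of the 15 windows, against 4.72% of all 32851 windows in the table. These were Rxrg (positions -89 to -83 from the start, chromosome 1, 167618176 to 167618182), Rxra (-49 to -43, chromosome 2, 27709243 to 27709249) and Perm1 (-202 to -196, on the opposite strand, so printed as TGACCTT; chromosome 4, 156215725 to 156215731). The E-box of myogenic factors, CAGCTG, was found in 4 windows, those of Esrra, Esrrb, Ppard and Rxrg, against 16.3% of all windows. Ppard held 2 copies, and the copy of Esrrb lies at -235 to -230 (chromosome 12, 86421409 to 86421414). The copy of Esrra lies across the start, at -4 to 1, within the annotated gene (chromosome 19, 6921807 to 6921812). The window of Ppargc1a held no match to any of the 6. In Rxrg the E-box at -84 to -79 shares its first 2 bases with the receptor site, which gives the single run of capitals. The Mef2 site, CTA and TAG with any 4 bases between, was found in 1 window of Esrrg, at -22 to -13, against 3.69% of windows. The longer receptor site TCAAGGTCA (0.423% of windows), the direct repeat bound by PPAR and RXR, 2 copies of AGGTCA with 1 base between (0.0396%) and the cAMP response element TGACGTCA (1.79%) were in none of the 15. A match is a run of letters and not a measured binding site, and gene counts do not show which start site was in use.

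Of the 10 genes, the fit over all genes called 7 lower and 1 higher in KO, and 2 were not called. Of all 15518 genes, 66.7% were called, 33.0% lower and 33.7% higher, at an adjusted p under 0.05 by edgeR's quasi-likelihood test. The libraries of the 2 groups did not overlap for the same 8 genes, against 34.1% of all genes with every KO library below every WT library and 35.3% with every one above. The 5 genes lower by over 2-fold were Esrrb, Ppargc1a, Ppara, Esrrg and Rxrg, and 9.38% of all genes passed that mark. Which members passed it depended on the setting. Rxrg fell short with library size only (log2 fold change -0.948), and Ppargc1b passed without WT replicate 2 (-1.026). The median log2 fold change of the members was -1.002 and that of all genes tested 0.02. Scaling by library size only moved the latter to 0.19 and the share of calls that were higher from 50.5% to 66.1%. The 7 lower genes were called under all 12 alternatives computed on the matrix.

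**Figure D1:**
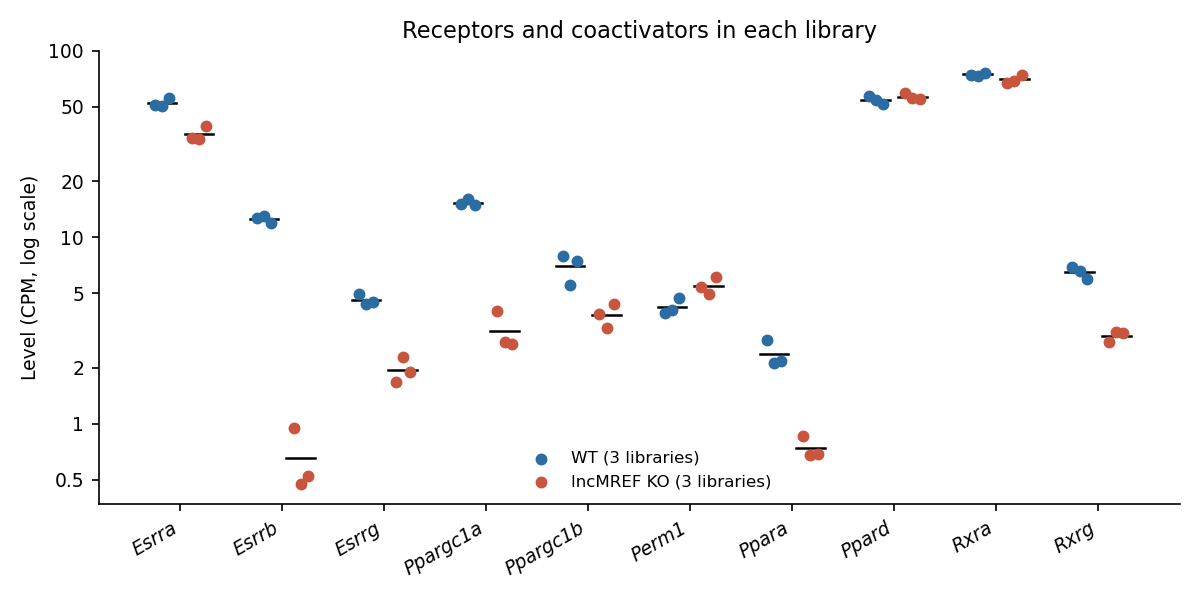
Level of each of the 10 genes in CPM on a log axis, 1 point per library, with WT in blue, KO in red and the mean of 3 libraries as a black line. Esrrb and Ppargc1a show the widest gaps, Perm1 lies higher in KO, and the points of Ppard and Rxra overlap between groups.

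**Figure D2:**
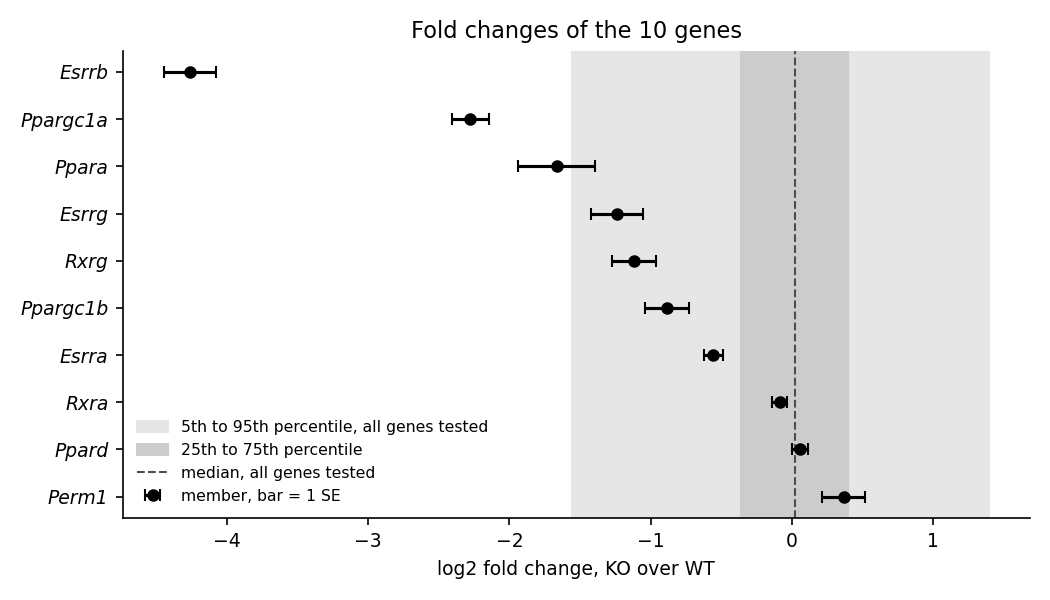
Log2 fold change of KO over WT for each gene (points, bars are 1 SE), over the spread of all 15518 genes tested (grey bands and dashed median). Esrrb, Ppargc1a and Ppara lie below the 5th percentile of all genes, which is -1.56, whereas Rxra, Ppard and Perm1 lie within the middle band from -0.36 to 0.39.

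Among the oestrogen-related receptors, Esrrb changed most. Esrrb (ENSMUSG00000021255, mm10 chromosome 12, 86361117 to 86521628, plus strand), best known for its part in pluripotent stem cells, stood at 12.7, 13.0 and 11.9 CPM in WT replicates 1 to 3. In KO it stood at 0.951, 0.478 and 0.527 CPM. Every KO library lay far below every WT library: the raw counts were 286, 247 and 320 in WT and 21, 12 and 10 in KO. The exact 95% Poisson interval of the lowest count, 10, runs from 4.8 to 18.4 and covers counting error only. The log2 fold change was -4.26 (SE 0.18), 19.1-fold lower, the 16th lowest of all genes tested.

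Esrra (ENSMUSG00000024955, chromosome 19, 6910977 to 6921813, minus strand), the most widely expressed of the family and a main partner of PGC-1 in mitochondrial gene control, stood at 51.0, 50.3 and 55.7 CPM in WT and 34.1, 33.5 and 39.6 in KO. All KO libraries were lower, by a log2 fold change of -0.56 (SE 0.07), which is 1.47-fold. Of its exonic bases 3.74% are shared with Trmt112 and Mir6990. Esrrg (ENSMUSG00000026610, chromosome 1, 187608791 to 188214885, plus strand), known from oxidative muscle and heart, stood at 4.98, 4.37 and 4.52 CPM in WT and 1.68, 2.27 and 1.90 in KO. The groups did not overlap, and the log2 fold change was -1.24 (SE 0.18).

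The make-up of the family differed with it. Per kilobase of exon, which allows genes to be compared, the 3 receptors summed to 14.8 ± 0.573 CPM per kilobase in WT and 8.57 ± 0.745 in KO (SD, n = 3 each here and below). Esrra held 80.8% ± 1.40 of that sum in WT and 95.04% ± 0.702 in KO. Esrrb held 14.1% ± 1.15 in WT and 1.27% ± 0.560 in KO, and its libraries did not overlap (12.8% to 15.02% against 0.924% to 1.92%). Esrrg held 5.05% ± 0.416 and 3.69% ± 0.723. Shares of a family add to 100% and so are not independent of each other.

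**Figure D3:**
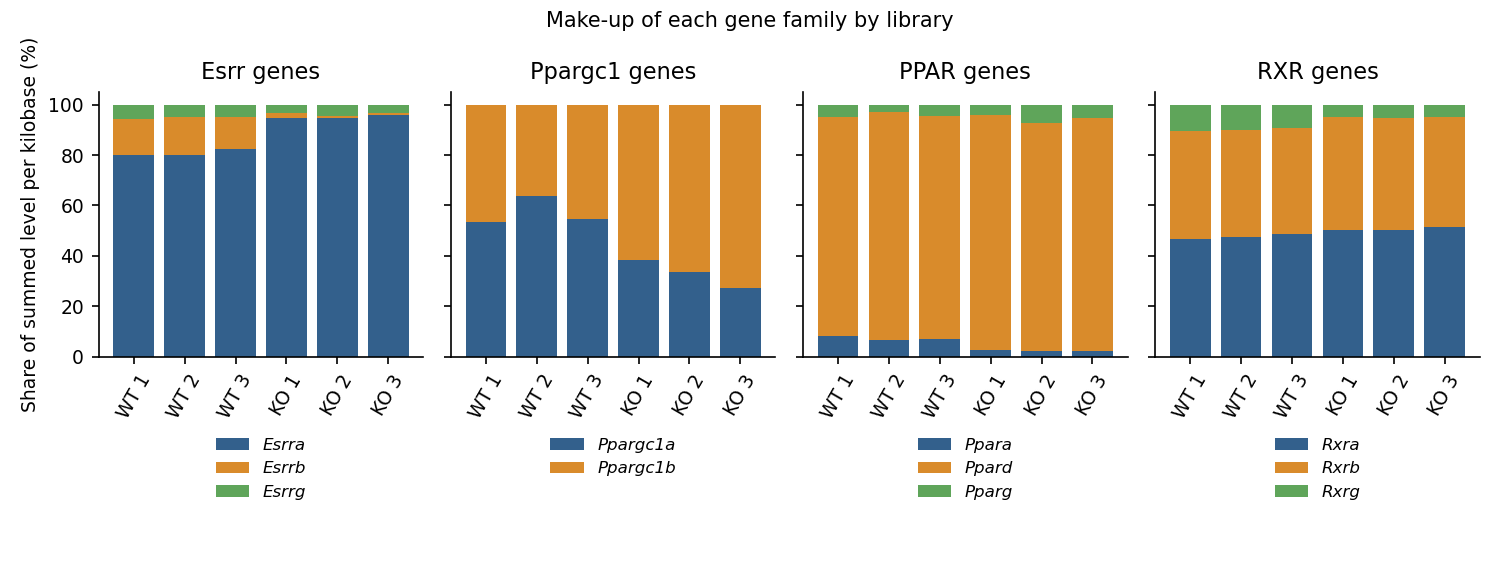
Share of the summed level per kilobase of exon held by each gene of 4 families, as stacked bars adding to 100% for each of the 6 libraries. The Esrrb band shrinks from 14.1% in WT to 1.27% in KO, and Ppargc1a goes from the larger to the smaller part of the PGC-1 pair.

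The PGC-1 coactivators were lower as well. Ppargc1a (ENSMUSG00000029167, chromosome 5, 51454250 to 51567726, minus strand), the inducible regulator of mitochondrial biogenesis, stood at 15.04, 16.1 and 14.9 CPM in WT and 4.03, 2.75 and 2.69 in KO. KO replicate 1 was the highest of its group and still below every WT library by a wide margin. The log2 fold change was -2.28 (SE 0.13), 4.84-fold lower. Ppargc1b, its close relative, stood at 7.92, 5.58 and 7.501 CPM in WT and 3.90, 3.27 and 4.37 in KO. WT replicate 2 lay nearest to the KO libraries, without overlap, and the log2 fold change was -0.89 (SE 0.15). Per kilobase, Ppargc1a held 57.2% ± 5.56 of the sum of both genes in WT and 33.1% ± 5.73 in KO, so the order of the pair was inverted in all 3 KO libraries. This rests on the division by length: in CPM, Ppargc1a (4.03) stayed above Ppargc1b (3.90) in KO replicate 1. Pprc1, the remaining gene of the PGC-1 family, had a WT level of 67.4 CPM and a KO level of 65.3, and edgeR's quasi-likelihood test did not call it (-0.04, SE 0.05, adjusted p 0.507), though with library size only it was called higher (0.13, adjusted p 0.0335 in the same test); it was named after its values were seen.

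Perm1 lay on the other side. Perm1 (ENSMUSG00000078486, chromosome 4, 156215868 to 156221307, plus strand) stood at 3.92, 4.05 and 4.70 CPM in WT and 5.39, 4.98 and 6.11 in KO, or 77 to 126 counts per library. The KO libraries were all above the WT libraries, though by little, with a log2 fold change of 0.37 (SE 0.15) and an adjusted p of 0.0329 by edgeR's quasi-likelihood test. The call was fragile. Leaving out WT replicate 1 gave an adjusted p of 0.123, WT replicate 2 0.0855, KO replicate 1 0.0571 and KO replicate 3 0.133 in the same edgeR test. DESeq2 gave 0.0802 and edgeR without the filter on low counts 0.0528. In the 12 matrix alternatives its adjusted p ran from 0.00214 to 0.133, with 6 calls, and its log2 fold change from 0.28 to 0.54.

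The PPAR receptors differed from each other. Ppara (ENSMUSG00000022383, chromosome 15, 85734983 to 85802819, plus strand), the fatty acid sensor of liver, heart and oxidative muscle, was scarce, at 2.80, 2.11 and 2.16 CPM in WT and 0.861, 0.677 and 0.685 in KO. That is 40 to 63 counts in a WT library and 13 to 19 in a KO library, without overlap, and the log2 fold change was -1.66 (SE 0.27). In the separate tables it had 5 to 8 counts in WT and 17 to 21 in KO, the opposite direction. Ppard (ENSMUSG00000002250, chromosome 17, 28232700 to 28301474, plus strand), the main PPAR of skeletal muscle, stood at 57.2, 54.7 and 51.9 CPM in WT and 59.6, 55.9 and 54.8 in KO. Its groups overlapped and it was not called (0.06, SE 0.06); with library size only it was called higher (0.23, adjusted p 0.000635 by edgeR's quasi-likelihood test). Pparg, the PPAR of fat cells and no member of the 10, was near 1 CPM in both groups (0.992 and 1.34), and edgeR's quasi-likelihood test did not call it (0.42, SE 0.30, adjusted p 0.222). Per kilobase, Ppard held 88.5% ± 1.74 of the 3 PPAR genes in WT and 92.1% ± 1.34 in KO, and Ppara 7.46% ± 0.787 and 2.35% ± 0.255. The summed level of the family overlapped between groups, from 7.82 to 8.77 CPM per kilobase in WT and from 7.88 to 8.504 in KO.

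Of the RXR partners, Rxrg (ENSMUSG00000015843, chromosome 1, 167598384 to 167639623, plus strand), which is found mainly in muscle and brain, stood at 6.90, 6.58 and 5.97 CPM in WT and 2.76, 3.11 and 3.06 in KO. All KO libraries were well below the lowest WT library, and the log2 fold change was -1.12 (SE 0.15). Rxra (ENSMUSG00000015846, chromosome 2, 27676440 to 27762957, plus strand), the broadly expressed partner of many nuclear receptors, stood at 74.5, 73.2 and 76.2 CPM in WT and 67.3, 69.1 and 74.4 in KO. KO replicate 3 lay within the WT range, and Rxra was not called (-0.09, SE 0.05). It was called lower without that library (-0.13, adjusted p 0.036 by edgeR's quasi-likelihood test), and with library size only its sign was opposite (0.08, adjusted p 0.157). Rxrb, which completes the family and is no member of the 10, was not called (-0.12, SE 0.06, adjusted p 0.0709 by edgeR's quasi-likelihood test). It was called lower in 3 of the 12 matrix alternatives, and with library size only its sign was opposite (0.05). Rxrg held 9.84% ± 0.653 of the summed RXR level per kilobase in WT and 5.10% ± 0.259 in KO.

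Within a genotype the levels per kilobase spanned a wide range. In WT the order was Rxra at 13.7 ± 0.270 CPM per kilobase, Esrra at 11.9 ± 0.671, Ppard at 7.27 ± 0.357, Rxrg at 2.82 ± 0.205, Ppargc1a at 2.33 ± 0.101, Esrrb at 2.08 ± 0.0912, Ppargc1b at 1.76 ± 0.313, Perm1 at 1.08 ± 0.108, Esrrg at 0.745 ± 0.0518 and Ppara at 0.615 ± 0.101. Neighbours in this order did not overlap over the 3 libraries except Esrrb with Ppargc1b and Esrrg with Ppara. In KO the first 3 places were the same, at 12.9 ± 0.673, 8.15 ± 0.771 and 7.55 ± 0.331, with Esrra and Ppard overlapping. Perm1 (1.41 ± 0.147) came next and overlapped Rxrg (1.30 ± 0.0807), and Esrrb was last at 0.108 ± 0.0430. With the longest transcript as the length in place of all exonic bases, Esrra was first in WT at 21.0 CPM per kilobase and Rxra second at 15.2. In KO the order was then Ppard at 15.2, Esrra at 14.4 and Rxra at 14.3, with neighbours among them overlapping. The order of the leading genes, and whether it was the same in WT and KO, therefore depends on the gene model.

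The spread between replicates was set beside the spread that counting alone gives. In WT the coefficient of variation ran from 1.97% for Rxra, where counting alone gives 2.42%, to 17.8% for Ppargc1b, where it gives 7.87%. In KO the largest was that of Esrrb, at 39.9% against 26.4% from counting its 10 to 21 reads.

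The other genes of the pathway were taken from lists written with earlier results of these data known. Oxidative genes known as targets of the oestrogen-related receptors and PGC-1 were mostly lower: of 24 tested, 23 fell in KO, 95.8% against 33.0% of all genes, 6 of them by over 2-fold. The other, Sirt3, was not called and was named after its value was seen. Their median log2 fold change was -0.77, against 0.02 over all genes. Cpt1b, with 24 counts in all libraries together, fell under the filter. Myoglobin, Mb, which stores oxygen in muscle, stood at 812 ± 23.1 CPM in WT and fell to 271 ± 9.87 in KO (-1.58, SE 0.04, adjusted p 5.11e-27 by edgeR's quasi-likelihood test), although 31.9% of its exonic bases are shared with other genes. Mb went the other way in the separate tables (0.24), and the list had 3 lower and 4 higher genes. Pdk4, the kinase that turns pyruvate away from mitochondria and a target of both receptor families, fell from 63.0 ± 3.35 to 13.5 ± 1.99 (-2.24, SE 0.08). Idh3a, a subunit of isocitrate dehydrogenase in the tricarboxylic acid cycle, fell from 258 ± 2.54 to 114 ± 4.31 (-1.18, SE 0.04, adjusted p 6.51e-23 in the same edgeR fit). Counts from mitochondrial DNA took 3.97% to 4.18% of WT libraries and 2.07% to 2.30% of KO libraries, and their part in these values was not tested.

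Genes of mitochondrial DNA upkeep, transcription and fusion moved less. Of 16 tested, 9 were lower and 7 were not called, with a median of -0.22. That is 56.2% called, fewer than the 66.7% of all genes, and more lower calls than the 33.0% of all genes. In the separate tables none was lower, 1 was higher, and Mfn1, below, had the opposite sign (0.38). The fusion genes Mfn2 (-0.70, SE 0.04), Opa1 (-0.58, SE 0.05) and Mfn1 (-0.54, SE 0.05) and the fission gene Dnm1l (-0.66, SE 0.05) fell, at adjusted p-values between 3.15e-16 and 4.95e-11 by edgeR's quasi-likelihood test. Tfam, the main packaging factor of mitochondrial DNA, stood at 33.9 CPM in WT and 33.0 in KO, and the nuclear respiratory factor Nrf1 at 36.0 and 38.7; neither was called (adjusted p 0.568 and 0.132 by the same edgeR test), and both were named after their values were seen. With library size only, 2 genes of this list were called higher, Nrf1 (0.28) among them.

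PPAR targets went in both directions. Of 21 tested, 13 were lower (61.9%, against 33.0% of all genes) and 7 higher (33.3%, against 33.7%), with a median of -0.36. The separate tables gave 3 lower and 1 higher. Besides Pdk4, the fatty acid dehydrogenase Acadl fell from 219 ± 8.36 to 113 ± 3.19 CPM (-0.96, SE 0.04), and the lipase inhibitor Angptl4 from 17.7 ± 0.261 to 4.79 ± 0.177 (-1.88, SE 0.11). The mitochondrial thioesterase Acot2 rose from 8.36 ± 0.519 to 24.0 ± 2.70 (1.51, SE 0.10), with Vldlr, a lipoprotein receptor (0.51, SE 0.06), and the lipid droplet protein Plin2 (0.29, SE 0.04, but -0.14 in the separate tables). The adjusted p-values of these genes lay between 1.06e-21 and 2.69e-07 by edgeR's quasi-likelihood test.

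Coregulators and upstream enzymes of the receptors were called about as often as all genes: of 26 tested, 9 were lower (34.6%, against 33.0%) and 8 higher (30.8%, against 33.7%), with a median of -0.03, and with library size only 5 were lower and 14 higher. The list holds 6 subunits of AMP-activated kinase, which phosphorylates PGC-1 alpha. Of these the catalytic subunit Prkaa2 fell from 53.5 ± 2.85 to 10.4 ± 1.22 CPM (-2.37, SE 0.08), and the regulatory subunits Prkag3 (-0.99, SE 0.06) and Prkab2 (-0.80, SE 0.07) fell too. The other 3, named after their values were seen, differed less: Prkaa1 fell (-0.27, SE 0.06), a call lost with library size only (-0.10), and Prkab1 (0.15, adjusted p 0.0505) and Prkag1 (-0.09, adjusted p 0.419) were not called by edgeR's quasi-likelihood test. Prkab1 was called higher in 3 of the 12 matrix alternatives. The calcium-dependent kinase Camk2a fell from 111 ± 3.28 to 26.4 ± 0.293 (-2.07, SE 0.06). In the separate tables Camk2a (0.11) and Prkab2 (0.30) had the opposite sign, and the list had 4 lower and 1 higher gene. Lpin1, a lipid phosphatase that also assists PGC-1 alpha, rose from 60.1 ± 1.11 to 78.1 ± 2.85 (0.38, SE 0.05). For the genes of this list other than those 3 subunits, adjusted p-values of the named genes lay between 3.28e-27 and 8.24e-08 by edgeR's quasi-likelihood test.

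**Figure D4:**
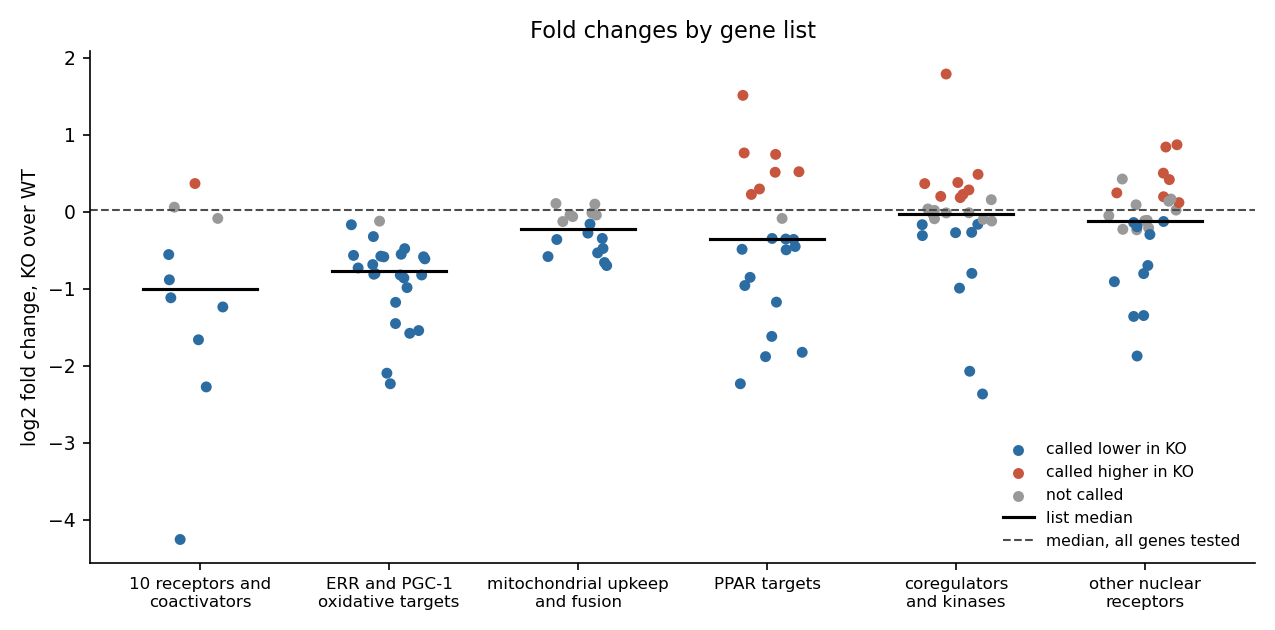
Log2 fold change of each tested gene in the 10 members and the 5 pathway lists, coloured by the call (blue lower in KO, red higher, grey not called), with list medians as black lines and the median of all genes dashed. The 24 oxidative targets all lie below the dashed line, whereas PPAR targets and coregulators fall on both sides.

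Other nuclear receptors were called at shares near those of all genes or below. Of 28 tested, 10 were lower (35.7%, against 33.0%) and 7 higher (25%, against 33.7%), with a median of -0.12; without WT replicate 1, 4 were higher. The orphan receptors of the Nr4a family went in different directions, with Nr4a3 (-1.87, SE 0.10) and Nr4a1 (-0.70, SE 0.08) lower and Nr4a2 (0.84, SE 0.11) higher. The retinoic acid receptor Rarg (0.50, SE 0.05), the orphan receptor Nr2f1 (0.87, SE 0.09) and the thyroid hormone receptor Thra (0.24, SE 0.06) rose. Adjusted p-values lay between 9.66e-19 and 0.00117 by edgeR's quasi-likelihood test. Of these 28 genes 3 were lower by over 2-fold, against 5 of the 10 members; the members were chosen with these values known, and this difference was not tested.

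The genes most like Esrrb in pattern were ranked by the Euclidean distance between log2 CPM profiles over the 6 libraries, each gene centred on its mean. Among the nearest 5 were Ky, the first (distance 0.421), Fam167a (0.689) and Cxcl5 (0.693). Ky went from 10.4 ± 0.923 to 0.582 ± 0.252 CPM and Cxcl5 from 71.9 ± 2.71 to 4.71 ± 0.662. Nearest to Ppargc1a were 3425401B19Rik (0.139), Slc9a2 (0.165), Stac2 (0.212), Trp63 (0.239) and Nos3 (0.256). Slc9a2 went from 13.4 ± 0.775 to 2.75 ± 0.480 CPM and Stac2 from 32.2 ± 1.27 to 6.65 ± 1.16. In the separate tables Stac2 (1.29) and Nos3 (0.33) had the opposite sign. With 6 libraries in 2 groups, genes with a like difference between genotypes rank high by construction.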

How the data were processed

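RNA-seq of 6 libraries, 3 WT and 3 KO by the titles in the labels, was analysed. The titles do not name lncMREF. The files the authors deposited hold raw counts, not normalized, as a matrix of 21666 genes and as a table of 55359 genes per library. HISAT2 2.2.1, featureCounts 2.0.1 and mm10 were used, per the submitters' processing notes. The annotation release, the options for counting and any use of strand were not given in the sources used here. Counts of the whole-series matrix served as the main source. The raw per-library mean was set against the matrix mean for 9941 genes with a matrix mean of at least 200 counts. It lay between 0.8 and 1.25 times the matrix mean in 5.84%, and in none of the 10 members. These means were not scaled for depth, and the per-library totals were far lower (7739731 against 23844610 counts in WT replicate 1). The share therefore cannot measure how far the sources disagree. The per-library tables served only as an alternative.

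Symbols, mm10 coordinates, exon lengths and shared exonic bases came from GENCODE M21 (21632 genes matched, 34 did not). Genes were kept by filterByExpr (minimum count 10, minimum total 15), scaled by TMM and tested with edgeR 4.0.16 in R 4.3.3 by the robust quasi-likelihood F-test on genotype alone. Benjamini-Hochberg adjustment ran over 15518 genes, and SE is the absolute log2 fold change over the root of F. The script was tested on simulated data. DESeq2 1.42.0 and limma 3.58.1 (voom) served as alternatives, beside other scalings, no filter, a replicate block and leaving out each library. Profiles used log2 CPM with a prior count of 2.

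Members, lists and tests were chosen with earlier results of these data known. All members are named; from each list the 4 called genes lowest in adjusted p with at least 1 CPM in a group, and up to 2 in the other direction; 4 genes that met the naming rules are not reported here. The comparison of protein sequences was not made. Replicate pairs of a group differed by more than sampling noise (mean chi-square per gene 3.18 to 5.11). The labels do not say that replicates are separate animals, so p-values measure only how these libraries vary, and that spread may be technical.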

Additional observations from a re-analysis of the deposited data

How the results depend on the processing

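On the matrix, 791 of 834 recomputed results kept their direction and their side of the threshold, or, for counts and shares, stayed within 1.5 times or 1 SD. With the per-library tables, 9 of the 33 results compared did so. The 7 lower members, and the list genes and nearest genes named by the naming rules and reported here, were called in each matrix alternative. The count of members called higher, 1 (Perm1), was 2 with library size only (Perm1 and Ppard), 0 with no filter and with DESeq2, and 0 to 1 over the fits that left out 1 library. With library size only, Rxra (0.082), Sirt3 (0.047), Tfam (0.126), Pprc1 (0.129), Rxrb (0.053) and Prkag1 (0.078), none of which was called with TMM, reversed, coregulators gave 5 lower and 14 higher, and mitochondrial upkeep genes 2 higher, a scaling that moved the median of all genes from 0.02 to 0.19. Other nuclear receptors called higher numbered 4 without WT replicate 1. From counts not divided by length, the mean family shares in WT and KO were 75.2% and 93.2% for Esrra, 68.8% and 44.9% for Ppargc1a, 5.005% and 2.52% for Rxrg and 94.2% and 96.5% for Ppard, and 18.1% in WT for Esrrb, all with the direction of the shares per kilobase. With the longest transcript as length, 4 neighbouring pairs did not overlap in KO.

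Of 9871 genes tested with the per-library tables, 2745 were lower and 2691 higher. Of the members only Ppara passed the filter there, reversed at 1.76, so 0 members were lower. The lists gave 3 lower and 4 higher oxidative targets, 0 and 1 upkeep genes, 3 and 1 PPAR targets, 4 and 1 coregulators, and 5 and 2 other receptors. How many genes of each list passed the filter there is not given, so these counts cannot be set against those of the matrix. Named genes reversed there were Camk2a (0.11), Erbb3 (0.34), Mb (0.24), Mfn1 (0.38), Nos3 (0.33), Plin2 (-0.14), Pprc1 (0.44), Prkab2 (0.30) and Stac2 (1.29), and Prkaa1 was at 0. The muscle, macrophage, progenitor and smooth muscle markers named above and Fabp4 were not compared there gene by gene. The cause of the difference between the sources was not tested.

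With the replicate number as a block, 5064 genes were lower and 5145 higher, and no member's call changed. Same-numbered libraries did not deviate together (correlations of -0.025 to -0.001). With 3 libraries a group, this cannot show whether same-numbered libraries were handled together, and the labels do not say. Depth limits Esrrb and Ppara in KO, at 10 to 21 counts a library.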
